A study of Bos taurus with 21 samples.

Results

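The creatine kinases *CKM*, *CKB* and *CKMT2*, the adenylate kinase *AK1* and the AMP deaminase *AMPD1* were followed through foetal muscle development in cattle. Their probes were taken as all non-control probes whose transcript is assigned to one of these genes in the cattle annotation, which gave 17 of 43653 probes and 5 of the 12538 genes that could be named. *CKM* had 4 probes, *CKB* 6, *CKMT2* 2, *AK1* 2 and *AMPD1* 3. All 17 were well above background on all 21 arrays. *CKM*, *CKMT2*, *AK1* and *AMPD1* rose between 110 and 260 days post conception (dpc) in both breeds and with every probe, and *CKMT2* rose most. *CKB* had no single direction, since 4 of its probes rose over this interval and 2 fell.

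The arrays measured muscle RNA of Blonde d'Aquitaine (BA) and Charolais (CH) foetuses, each from cows inseminated with semen of their own breed. Both are beef breeds from France, and the labels give no *MSTN* (myostatin) genotype for the foetuses. BA was represented by 3, 2, 3 and 2 foetuses at 110, 180, 210 and 260 dpc, and CH by 2, 3, 3 and 3, with 1 array for each. Of the 10 BA foetuses 3 were males, and of the 11 CH foetuses 5 were males, and each breed had 2 sires. No male was measured in BA at 180 or 260 dpc or in CH at 110 dpc. The foetuses of BA at 180 and 260 dpc and of CH at 210 dpc came from 1 sire in each group. The sample labels name the muscle *m. Longissimus thoracis*, whereas the paper names *m. Semitendinosus*, and the markers used here do not tell them apart.

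Creatine kinases move a phosphate group between ATP and creatine and so hold a rapid energy reserve. *CKM* encodes the muscle-type enzyme, part of which is bound to the sarcomere, *CKB* the brain-type enzyme of many immature and non-muscle cells, and *CKMT2* the sarcomeric mitochondrial enzyme, which charges creatine with mitochondrial ATP. In skeletal muscle the brain-type enzyme is known to give way to the muscle type as myoblasts fuse and fibres mature. Adenylate kinase, encoded in muscle cytosol by *AK1*, turns ADP back into ATP and AMP, and *AMPD1*, the muscle AMP deaminase, removes AMP in the purine nucleotide cycle.

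Every level is a normalized log2 intensity, which is the log2 of the scanner intensity after each array was shifted by its 75th percentile, and 0 marks the median probe of a typical array. A difference of 1 on this scale is 2-fold. Probes differ in brightness for the same amount of RNA, so levels of different probes were not compared as amounts of RNA, and only their changes were. Levels of different probes were added in the summed levels of cell marker lists and in a sum fitted to a *CKB* probe. A summed level is the log2 of the added linear intensities of the measured markers, after scaling, so bright markers weigh most. Each gene was represented by its brightest probe over the 21 arrays, and its other probes were given beside it. On an array, 29017 to 34501 probes exceeded background clearly. Hybridization used 6 slides and scanning took 3 days, and no array was left out. Foetuses are separate animals, so the spread within a group includes that between animals. Differences were tested with limma over all 43653 probes with Benjamini-Hochberg adjustment, and a difference passed at an adjusted p under 0.05.

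From 110 to 260 dpc the brightest probes of all 5 genes rose in BA, where 15.8% of all probes rose and 17.5% fell. The same 5 of 5 rose in CH, against 16.2% of all probes higher and 16.4% lower. With the breeds averaged the brightest probes of 5 of 5 genes again rose, beside 21.2% of all probes higher and 22.7% lower. Over all 17 probes, 15 rose and 2 fell in each of these comparisons, and both that fell belong to *CKB*. Ranked by the rise of the brightest probe with breeds averaged, *CKMT2* was 12th of 12538 genes, *CKB* 74th, *CKM* 130th, *AK1* 240th and *AMPD1* 568th.

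**Figure D1:**
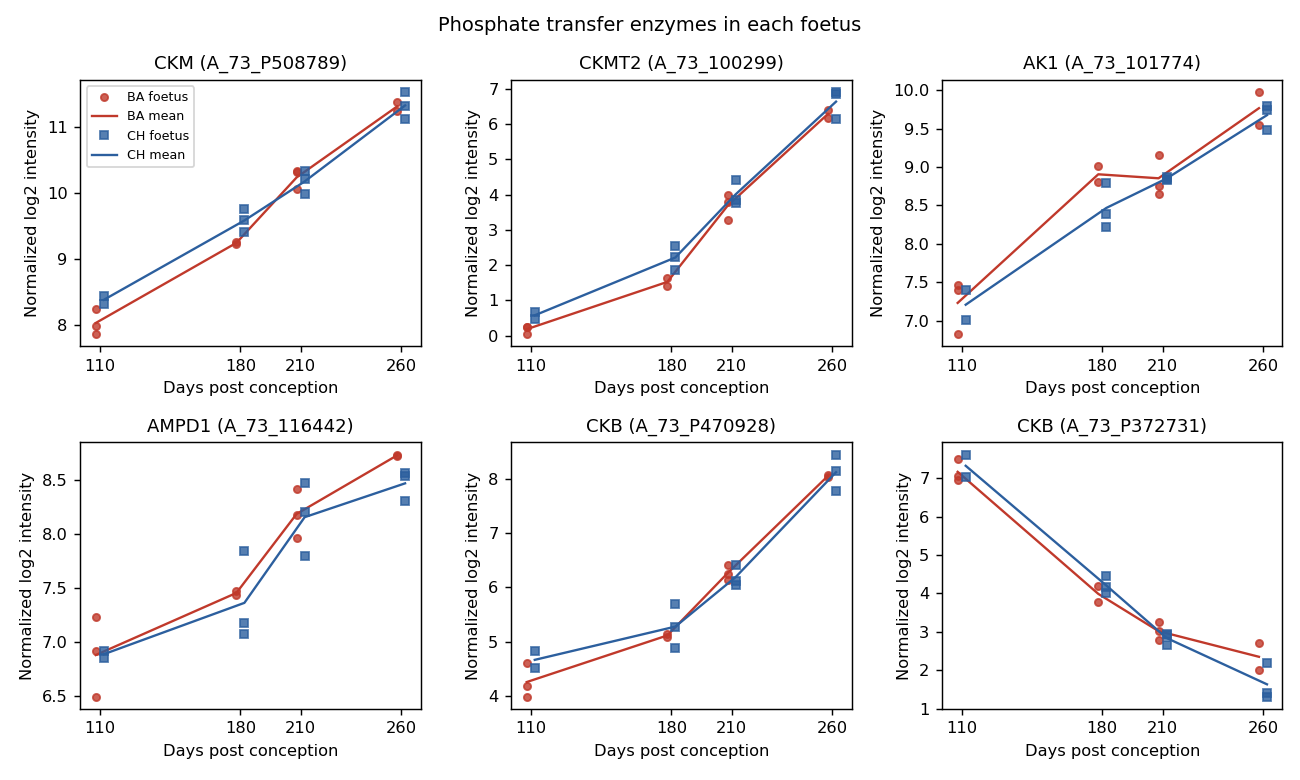
Normalized log2 intensity (vertical axis, own scale for each panel) of each foetus against days post conception, for the brightest probe of each gene and a further *CKB* probe. Red circles are BA foetuses, blue squares CH foetuses and lines the group means. *CKM* climbs from between 7.87 and 8.45 at 110 dpc to between 11.13 and 11.53 at 260 dpc, while the *CKB* probe in the last panel falls from at least 6.94 to at most 2.71.

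*CKM* increased at each stage in both breeds. In BA its levels were 7.98, 8.25 and 7.87 at 110 dpc, 9.24 and 9.26 at 180 dpc, 10.32, 10.06 and 10.34 at 210 dpc, and 11.24 and 11.38 at 260 dpc. In CH they were 8.45 and 8.32 at 110 dpc, 9.59, 9.77 and 9.41 at 180 dpc, 9.99, 10.33 and 10.21 at 210 dpc, and 11.13, 11.53 and 11.32 at 260 dpc. By this brightest probe, no foetus overlapped in *CKM* with any foetus of the next stage, whatever its breed. With probes A_73_117171 and A_73_P253286 the foetuses at 180 and 210 dpc overlapped. The share of all probes that separate the stages was not counted, so the separations given here and below are only descriptions. The rise to 260 dpc was 3.28 ± 0.16 (SE, 3 and 2 foetuses) in BA, or 9.68-fold, with a limma adjusted p of 2.2e-09. In CH it was 2.94 ± 0.16 (SE, 2 and 3 foetuses), or 7.68-fold, with a limma adjusted p of 6.6e-09. The other *CKM* probes rose by 2.31, 3.98 and 4.01 with breeds averaged, so that the direction was shared by all 4 probes but the size ranged around the 3.11 ± 0.12 (SE) of the brightest. No probe value was saturated.

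*CKMT2*, the mitochondrial partner of *CKM*, increased most among the 5 genes. In BA its levels were 0.25, 0.05 and 0.26 at 110 dpc, 1.41 and 1.64 at 180 dpc, 3.79, 3.28 and 3.98 at 210 dpc, and 6.39 and 6.19 at 260 dpc. In CH they were 0.68 and 0.48 at 110 dpc, 2.23, 2.55 and 1.87 at 180 dpc, 4.42, 3.85 and 3.76 at 210 dpc, and 6.15, 6.92 and 6.85 at 260 dpc. The stages were fully separate, and the lowest foetus at 260 dpc lay above the highest at 210 dpc. The rise was 6.10 ± 0.27 (SE) in BA (68.8-fold, limma adjusted p = 7.8e-10) and 6.06 ± 0.27 (SE) in CH (66.7-fold, limma adjusted p = 9.4e-10). The other *CKMT2* probe, which was dimmer, rose by 6.12 ± 0.22 (SE) with breeds averaged, beside 6.08 ± 0.19 for the brighter probe.

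*CKB*, the brain-type enzyme, was read in opposite directions by its probes. Its brightest probe, A_73_P470928, had levels of 4.17, 4.61 and 3.98 at 110 dpc, 5.08 and 5.15 at 180 dpc, 6.41, 6.24 and 6.14 at 210 dpc, and 8.08 and 8.05 at 260 dpc in BA. In CH it had 4.82 and 4.51 at 110 dpc, 4.88, 5.69 and 5.27 at 180 dpc, 6.05, 6.41 and 6.12 at 210 dpc, and 7.78, 8.46 and 8.15 at 260 dpc. This probe rose from stage to stage without overlap, by 3.81 ± 0.24 (SE) from 110 to 260 dpc in BA (limma adjusted p = 2.0e-08) and by 3.47 ± 0.24 in CH (limma adjusted p = 5.0e-08). Probes A_73_P313636 and A_73_P459491 had nearly the same course, and each rose by 3.64 with breeds averaged, as A_73_P470928 did. With A_73_P459491, however, the foetuses at 110 and 180 dpc overlapped.

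Probe A_73_P372731 of *CKB* went the other way. In BA it had levels of 7.07, 7.50 and 6.94 at 110 dpc, 3.78 and 4.20 at 180 dpc, 2.78, 3.02 and 3.26 at 210 dpc, and 2.71 and 1.99 at 260 dpc. In CH it had 7.62 and 7.03 at 110 dpc, 4.00, 4.17 and 4.45 at 180 dpc, 2.66, 2.92 and 2.93 at 210 dpc, and 2.19, 1.31 and 1.39 at 260 dpc. All 5 foetuses at 110 dpc were far above all others, and only 210 and 260 dpc overlapped, through a single BA foetus at 2.71. It fell by 4.82 ± 0.29 (SE) from 110 to 260 dpc in BA (28.3-fold, limma adjusted p = 1.3e-08) and by 5.70 ± 0.29 in CH (51.9-fold, limma adjusted p = 3.4e-09). With breeds averaged A_73_P372731 fell by 5.26 and probe A_73_P365171, which ran alongside it, fell by 5.22. The largest step of A_73_P372731 was from 110 to 180 dpc, where it fell by 3.15 ± 0.21 (SE, limma adjusted p = 1.3e-07), before falling by 1.17 and 0.94 in the next intervals.

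The sixth *CKB* probe, A_73_P035806, fell and then rose. Its means (± SD) over the 4 successive stages in BA were 4.18 ± 0.31 (3 foetuses), 2.84 ± 0.06 (2 foetuses), 3.49 ± 0.26 (3 foetuses) and 5.36 ± 0.19 (2 foetuses). In CH they were 4.52 ± 0.30 (2 foetuses), 3.09 ± 0.12 (3 foetuses), 3.35 ± 0.53 (3 foetuses) and 5.39 ± 0.21 (3 foetuses). Its mean thus was lowest at 180 dpc and highest at 260 dpc in both breeds. The foetuses at 180 and 210 dpc overlapped, and the lowest of all, at 2.74, was a CH foetus at 210 dpc. As a description on the linear intensity scale, 0.146 times A_73_P470928 plus 0.112 times A_73_P372731 came within a median of 0.10 and at most 0.64 log2 units of this probe over the 21 arrays, and this sum was fitted after the values had been seen.

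Within the breed and stage groups, A_73_P470928 varied with A_73_P313636 and A_73_P459491 (r of 0.85 and 0.89 across 21 foetuses after the group means were removed) and with the *CKM* probes (r of 0.73 for the brightest, and 0.48, 0.87 and 0.82 for the others). With the brightest probe of *AMPD1* its r was 0.72, with that of *AK1* 0.31 and with that of *CKMT2* 0.27. The *CKM* probes, in the same order, had r of 0.43, 0.20, 0.58 and 0.48 with A_73_P313636. With A_73_P459491 they had 0.67, 0.47, 0.73 and 0.68. Between A_73_P470928 and the falling A_73_P372731 the same correlation was 0.03, while the falling probes A_73_P372731 and A_73_P365171 varied together (r of 0.98). The probes share arrays and scaling in all of these values, which are descriptions. No probe sequence was used here, so which probes report *CKB* RNA, a transcript form of it or another RNA was not tested. The direction of *CKB* therefore holds only for the probe named with it. From 110 to 260 dpc the mean of all 6 probes differed by 0.50 in BA (limma adjusted p = 0.046), by −0.0088 in CH (limma adjusted p = 0.98) and by 0.25 with breeds averaged (limma adjusted p = 0.14).

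**Figure D2:**
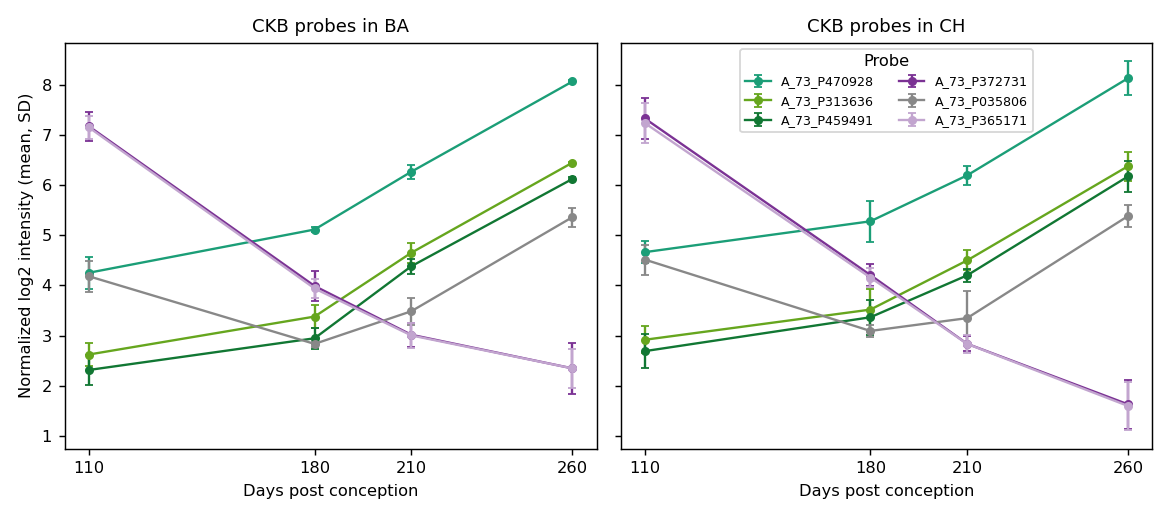
Mean normalized log2 intensity (vertical axis) of the 6 *CKB* probes against days post conception in BA (left) and CH (right), with the SD over 2 or 3 foetuses as bars. Probes A_73_P470928, A_73_P313636 and A_73_P459491 rise, A_73_P372731 and A_73_P365171 fall along nearly the same line, and A_73_P035806 is lowest at 180 dpc.

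The brain-type to muscle-type shift was followed as the log2 ratio of a *CKM* to a *CKB* probe within each foetus, expressed as its change from the mean of the 5 foetuses at 110 dpc. Scaling by array cancels in this ratio, and only unequal change of the probes can be read from it. Against the falling probe A_73_P372731 the ratio (mean ± SD over 5, 6 and 5 foetuses) had grown by 4.39 ± 0.30 at 180 dpc, 6.34 ± 0.19 at 210 dpc and 8.46 ± 0.69 at 260 dpc. At 260 dpc the BA foetuses had 7.59 and 8.45 and the CH foetuses 7.99, 9.28 and 8.98, all above the 6.60 that was the highest at 210 dpc. Against the rising probe A_73_P470928 the change over the same foetuses was 0.48 ± 0.27 at 180 dpc, 0.22 ± 0.14 at 210 dpc and −0.54 ± 0.12 at 260 dpc. By these brightest probes *CKB* rose more than *CKM* over the whole interval, in all 5 foetuses at 260 dpc. With breeds averaged, the *CKM* probes rose by 3.11 (the brightest), 2.31, 3.98 and 4.01, beside 3.64 for A_73_P470928. Over all 24 pairs of a *CKM* with a *CKB* probe, the change of the ratio from 110 to 260 dpc ran from −1.33 to 9.26 with a median of 0.83, and it was above 0 in 18. The sign of this ratio's change thus depended on the probes chosen for both genes.

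The direction of the shift towards the mitochondrial isoform did not depend on such a choice, since both *CKMT2* probes rose more than every *CKM* probe. Its size did, because the *CKM* probes rose by unequal amounts. By the brightest probes the log2 ratio of *CKMT2* to *CKM* had grown by 0.32 ± 0.24 at 180 dpc, 1.47 ± 0.41 at 210 dpc and 3.01 ± 0.29 at 260 dpc (mean ± SD over 5, 6 and 5 foetuses), the last being 8.06-fold. At 260 dpc it was 2.99 and 2.64 in BA and 2.85, 3.22 and 3.37 in CH, above every foetus of earlier stages. At 210 dpc 1 CH foetus stood above the others at 2.26, and the other 5 lay between 1.06 and 1.48.

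**Figure D3:**
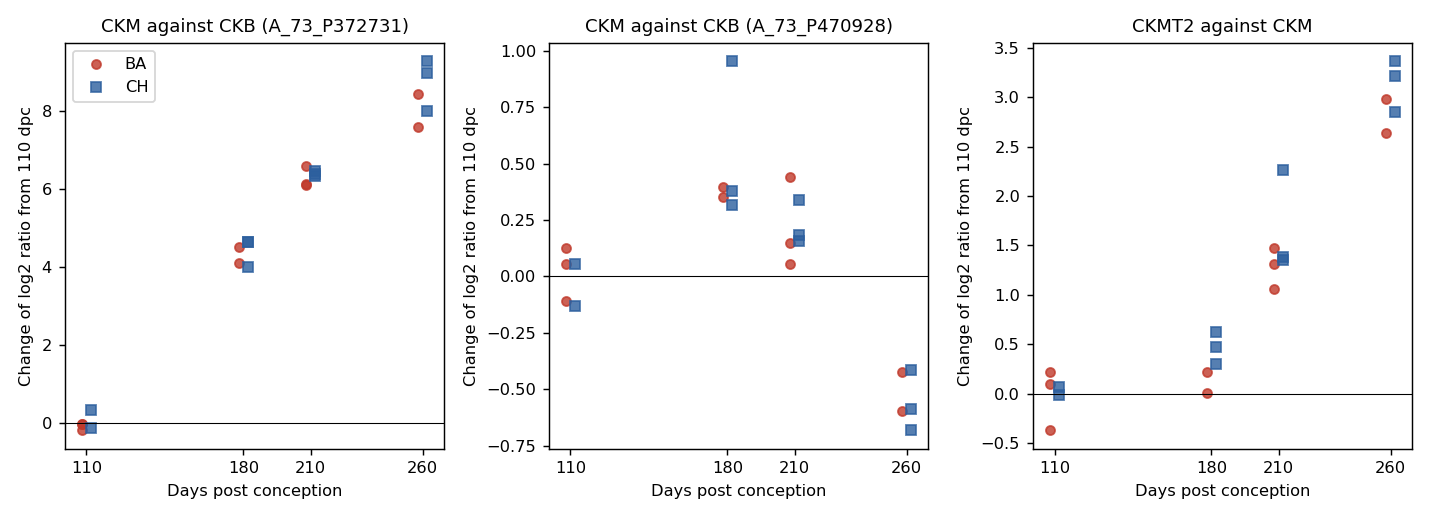
Change of the log2 ratio of a probe pair from the mean of the 5 foetuses at 110 dpc (vertical axis, own scale for each panel) against days post conception, with BA foetuses as red circles and CH foetuses as blue squares. *CKM* against A_73_P372731 reaches between 7.59 and 9.28 at 260 dpc, *CKM* against A_73_P470928 ends below 0, and *CKMT2* against *CKM* reaches between 2.64 and 3.37.

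*AK1*, the adenylate kinase of muscle cytosol, had its largest step from 110 to 180 dpc, which was also the longest interval. In BA its levels were 6.83, 7.40 and 7.47 at 110 dpc, 8.80 and 9.01 at 180 dpc, 8.65, 9.15 and 8.76 at 210 dpc, and 9.55 and 9.98 at 260 dpc. In CH they were 7.01 and 7.40 at 110 dpc, 8.22, 8.80 and 8.38 at 180 dpc, 8.84, 8.85 and 8.86 at 210 dpc, and 9.48, 9.75 and 9.80 at 260 dpc. The foetuses at 180 and 210 dpc overlapped, while those at 110 dpc lay below and those at 260 dpc above all others. The rise from 110 to 260 dpc was 2.54 ± 0.23 (SE) in BA (5.80-fold, limma adjusted p = 6.0e-07) and 2.47 ± 0.23 (SE) in CH (5.54-fold, limma adjusted p = 7.4e-07). The other *AK1* probe rose by 2.71 with breeds averaged.

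*AMPD1*, the muscle AMP deaminase, increased least. In BA its levels were 6.91, 7.23 and 6.49 at 110 dpc, 7.44 and 7.47 at 180 dpc, 8.41, 8.18 and 7.96 at 210 dpc, and 8.72 and 8.74 at 260 dpc. In CH they were 6.92 and 6.86 at 110 dpc, 7.07, 7.84 and 7.18 at 180 dpc, 8.20, 8.47 and 7.79 at 210 dpc, and 8.56, 8.53 and 8.31 at 260 dpc. Neighbouring stages overlapped at every step when the breeds were pooled, although 110 and 260 dpc were far apart. The rise was 1.85 ± 0.25 (SE) in BA (3.60-fold, limma adjusted p = 3.3e-05) and 1.58 ± 0.25 (SE) in CH (2.99-fold, limma adjusted p = 0.00014). The other *AMPD1* probes rose by 1.78 and 1.59 with breeds averaged. The 2 enzymes of AMP handling did not keep pace, and the log2 ratio of *AMPD1* to *AK1* had changed by −0.91 ± 0.22 at 180 dpc, −0.34 ± 0.33 at 210 dpc and −0.80 ± 0.27 at 260 dpc (mean ± SD over 5, 6 and 5 foetuses).

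**Figure D4:**
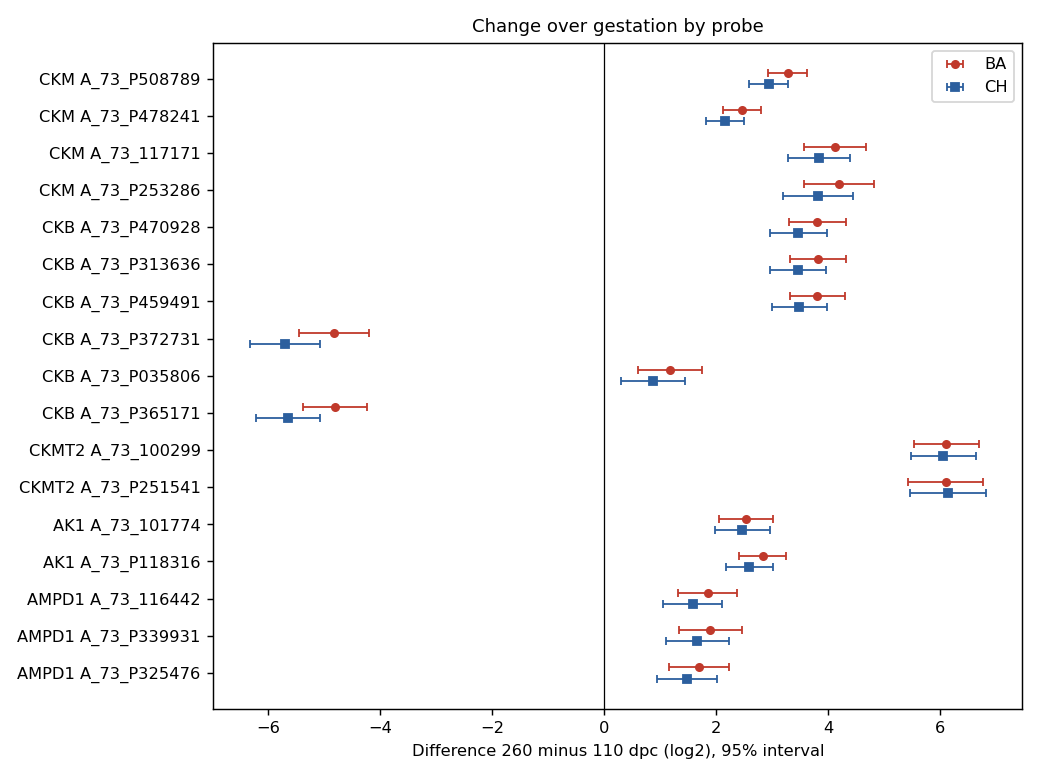
Difference between 260 and 110 dpc (log2, horizontal axis) for each of the 17 probes in BA (red circles) and CH (blue squares), with 95% intervals from limma. The intervals of 15 probes lie above 0 in both breeds, and those of the *CKB* probes A_73_P372731 and A_73_P365171 lie below 0.

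The steps between neighbouring stages, which span unequal intervals, were tested with the breeds averaged. From 110 to 180 dpc 4 of 5 brightest probes rose, beside 6.53% of all probes higher and 6.63% lower. Of the 17 probes of the 5 genes, 11 rose and 3 fell, all 3 of *CKB*. *CKMT2* rose by 1.49 ± 0.19 (SE), *AK1* by 1.47 ± 0.16, *CKM* by 1.21 ± 0.12 and *CKB* (A_73_P470928) by 0.74 ± 0.17, and their limma adjusted p-values were 9.9e-05, 2.2e-05, 5.9e-06 and 0.0088. *AMPD1* differed by 0.52 ± 0.18 (SE), with a limma adjusted p of 0.064.

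From 180 to 210 dpc 4 of 5 brightest probes rose, where 1.95% of all probes were higher and 1.67% lower. Of the 17 probes of the 5 genes, 12 rose and 2 fell, both of *CKB*. *CKMT2* rose by 1.97 ± 0.18 (SE), *CKB* (A_73_P470928) by 1.03 ± 0.16, *CKM* by 0.79 ± 0.11 and *AMPD1* by 0.76 ± 0.17. Their limma adjusted p-values were 4.3e-05, 0.0026, 0.0011 and 0.020. *AK1* differed by 0.17 ± 0.15 (SE), with a limma adjusted p of 0.69 and a 95% interval from −0.16 to 0.49. From 210 to 260 dpc 4 of 5 brightest probes rose, where 11.9% of all probes were higher and 12% lower. Of the 17 probes, 13 rose and 2 fell, again both of *CKB*. *CKMT2* rose by 2.62 ± 0.18 (SE), *CKB* (A_73_P470928) by 1.87 ± 0.16, *CKM* by 1.11 ± 0.11 and *AK1* by 0.87 ± 0.15. Their limma adjusted p-values were 4.8e-07, 1.8e-06, 5.2e-06 and 0.000625. *AMPD1* differed by 0.43 ± 0.17 (SE), with a limma adjusted p of 0.079. Whether a gene's steps differed from each other was not tested.

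The steps of *AMPD1* lay close to the threshold. The call from 180 to 210 dpc was lost when any of 5 foetuses was left out, namely BA at 180 dpc replicate 1 or 2, BA at 210 dpc replicate 1, or CH at 180 dpc replicate 1 or 3, and over all 21 omissions the difference ranged from 0.68 to 0.88. The call from 110 to 180 dpc was gained without BA at 110 dpc replicate 2 or CH at 180 dpc replicate 1, with a range from 0.41 to 0.61. The call from 210 to 260 dpc was gained without CH at 180 dpc replicate 2 or CH at 210 dpc replicate 2, with a range from 0.34 to 0.51. No such omission changed a call of the other 4 genes.

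The rises also appeared among arrays that shared a batch. On the only slide with foetuses of both 110 and 260 dpc, which held 1 BA foetus at 110 dpc and 1 CH foetus at 260 dpc, so that stage and breed cannot be told apart, the difference was 3.55 for *CKM*, 4.29 for *CKB* (A_73_P470928), 6.67 for *CKMT2*, 2.92 for *AK1* and 1.62 for *AMPD1*. Among the arrays of the scan day with 3 foetuses at each of these stages, the differences were 3.14, 3.70, 6.40, 2.62 and 1.50 in the same order. These foetuses were 2 BA and 1 CH at 110 dpc and 1 BA and 2 CH at 260 dpc. Within BA on that day the differences were 3.12, 3.69, 6.25, 2.44 and 1.65, and within CH 2.98, 3.48, 6.20, 2.76 and 1.50. The other scan day that held both stages had 1 CH foetus at 110 dpc and 1 foetus of each breed at 260 dpc. There the differences were 2.93, 3.41, 5.69, 2.33 and 1.79.

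BA and CH were then compared at each stage, to ask whether the enzymes differed between the muscular breed and its comparator. None of the 5 brightest probes, and none of the 17 probes, passed at 110 dpc (0.0206% of all probes passed), 180 dpc (0.0275%), 210 dpc (0.00229%) or 260 dpc (0.0137%). None passed with the stages averaged (0.0733%), and none passed for a breed difference in its change from 110 to 260 dpc (0.00687%). At an unadjusted limma p under 0.05, 1 of the 5 brightest probes lay at 110 dpc (*CKM*), 1 at 180 dpc (*CKMT2*), 0 at 210 dpc, 0 at 260 dpc, 1 with the stages averaged (*CKMT2*) and 0 in the change. Among all 17 probes of the 5 genes there were 1, 2, 0, 2, 2 and 1 such probes in the same order. Over all probes tested there were 4269 of 43651, 2556 of 43653, 1927 of 43653, 2006 of 43652, 3894 of 43651 and 2312 of 43651.

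*CKMT2* had the largest breed difference of the brightest probes when the stages were averaged. BA minus CH was −0.39 at 110 dpc, −0.69 at 180 dpc, −0.32 at 210 dpc and −0.35 at 260 dpc. The BA foetuses all lay below the CH foetuses at 110 and 180 dpc, whereas the breeds overlapped at 210 and 260 dpc. How many of all probes separate the breeds in such small groups was not counted, so the separation is only a description. The average was −0.44 ± 0.13 (SE), with a 95% interval from −0.72 to −0.16, an unadjusted p of 0.0047 and a limma adjusted p of 0.28. The dimmer *CKMT2* probe gave −0.46, with a limma adjusted p of 0.34. Between foetuses of 1 stage on the same slide, BA minus CH was −0.63 at 110 dpc, −0.91 at 180 dpc, −0.06 and −1.13 at 210 dpc, and 0.04 and −0.46 at 260 dpc.

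For the other genes the averaged BA minus CH difference was −0.16 for *CKM* (95% interval −0.33 to 0.01), −0.14 for *CKB* by A_73_P470928 (−0.39 to 0.11), 0.14 for *AK1* (−0.10 to 0.38) and 0.09 for *AMPD1* (−0.17 to 0.35). These intervals leave room for differences of up to 0.39 in size. For the falling *CKB* probe A_73_P372731 it was 0.13 (−0.17 to 0.43). At 260 dpc the BA foetuses had 2.71 and 1.99 with this probe and the CH foetuses 2.19, 1.31 and 1.39, so the breeds overlapped, and the difference of 0.72 had a limma adjusted p of 1.0. This probe and A_73_P365171, which differed by 0.75, were the 2 of 17 with an unadjusted limma p under 0.05 at 260 dpc. Over all probes there were 2006 of 43652.

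The genes whose course was most like that of each member were named over the 21 foetuses, among 9217 genes well above background on every array. For *CKM* they were *PGAM2*, the muscle phosphoglycerate mutase (Pearson r of 0.993), *CASQ1*, the calcium buffer of fast fibres (0.991), and *ACTN4*, an actin crosslinker (0.991). For *CKMT2* they were *ACADVL*, which starts mitochondrial oxidation of long fatty acids (0.990), *PHYH* of peroxisomal oxidation (0.989) and *GAPDHS*, a glyceraldehyde phosphate dehydrogenase (0.988). For *CKB* by A_73_P470928 they were *MCEE*, a mitochondrial epimerase (0.986), *NDUFB6*, a subunit of respiratory complex I (0.985), and *CISD1*, an outer mitochondrial membrane protein (0.985). For the falling A_73_P372731 they were *ABLIM3* (0.978), *AMPD2*, the AMP deaminase of many non-muscle tissues (0.975), and the histone variant gene *MACROH2A2* (0.974). The genes most like *AK1* were *ASB12* (0.978), *AGPAT5* (0.968) and *FAM162A* (0.965), and those most like *AMPD1* were *SLC25A25*, a mitochondrial ATP-magnesium carrier (0.957), *CD59* (0.950) and *ZC3H11A* (0.950). All of these values are carried by the stages that the foetuses share.

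The genes around these enzymes were taken from lists of creatine supply, adenylate kinases, AMP deaminases, the purine nucleotide cycle with AMP salvage, nucleoside diphosphate kinases and AMP-activated kinase. Of 35 listed genes 32 were measured, and between 110 and 260 dpc with breeds averaged 15 rose and 8 fell. Over all probes 21.2% were higher and 22.7% lower, and these shares stand beside the counts of each list below. Their median difference was 0.27, beside 0.09 over all probes tested. None of the 32 passed between the breeds with the stages averaged, where 0.0733% of all probes passed.

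All 3 creatine supply genes rose alongside the creatine kinases. *GATM*, which makes the creatine precursor, rose by 4.56 ± 0.23 (SE, limma adjusted p = 5.5e-10), *GAMT*, which completes creatine, by 1.96 ± 0.12, and *SLC6A8*, the creatine transporter, by 0.73 ± 0.14. The remaining mitochondrial creatine kinase, *CKMT1A*, which is the ubiquitous form, differed by 0.30 ± 0.27 (SE), with a limma adjusted p of 0.39.

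Of 6 further adenylate kinases measured, 3 rose and 1 fell. *AK3* of the mitochondrial matrix rose by 1.48 ± 0.09 (SE), *AK4*, also of the matrix, by 1.38 ± 0.21, and *AK6* by 0.87 ± 0.10, while *AK7*, the gene that fell, was well above background on only 6 arrays. *AMPD2* fell by 1.66 ± 0.11 (SE, limma adjusted p = 1.1e-08) while *AMPD1* rose, although 1 of the 3 *AMPD2* probes differed by 0.53 and did not pass.

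Of the 8 purine nucleotide cycle and salvage genes 6 rose and 1 fell. *ADSS1*, the muscle adenylosuccinate synthase that acts with *AMPD1* in the cycle, rose by 3.31 ± 0.17 (SE, limma adjusted p = 4.3e-10), and *ADSL*, the lyase that closes the cycle, by 1.60 ± 0.14. *NT5C1A*, which splits AMP to adenosine, rose by 1.59 ± 0.24, and *ADK*, which returns adenosine to AMP, by 1.15 ± 0.11. *ADSS2*, the non-muscle synthase, fell by 0.27 ± 0.10 (SE), with a limma adjusted p of 0.046. The 7 nucleoside diphosphate and guanylate kinases, which spread phosphate among nucleotides, gave 5 that fell and none that rose. These were led by *NME3* with a fall of 1.02 ± 0.11 (SE), *NME1* with 0.75, *NME2* with 0.71 and *GUK1* with 0.45. Of 6 measured subunits of AMP-activated kinase, the sensor of AMP, 3 rose, namely *PRKAG3* by 2.26 ± 0.24 (SE), *PRKAB2* by 1.38 ± 0.19 and *PRKAA2* by 1.34 ± 0.13.

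**Figure D5:**
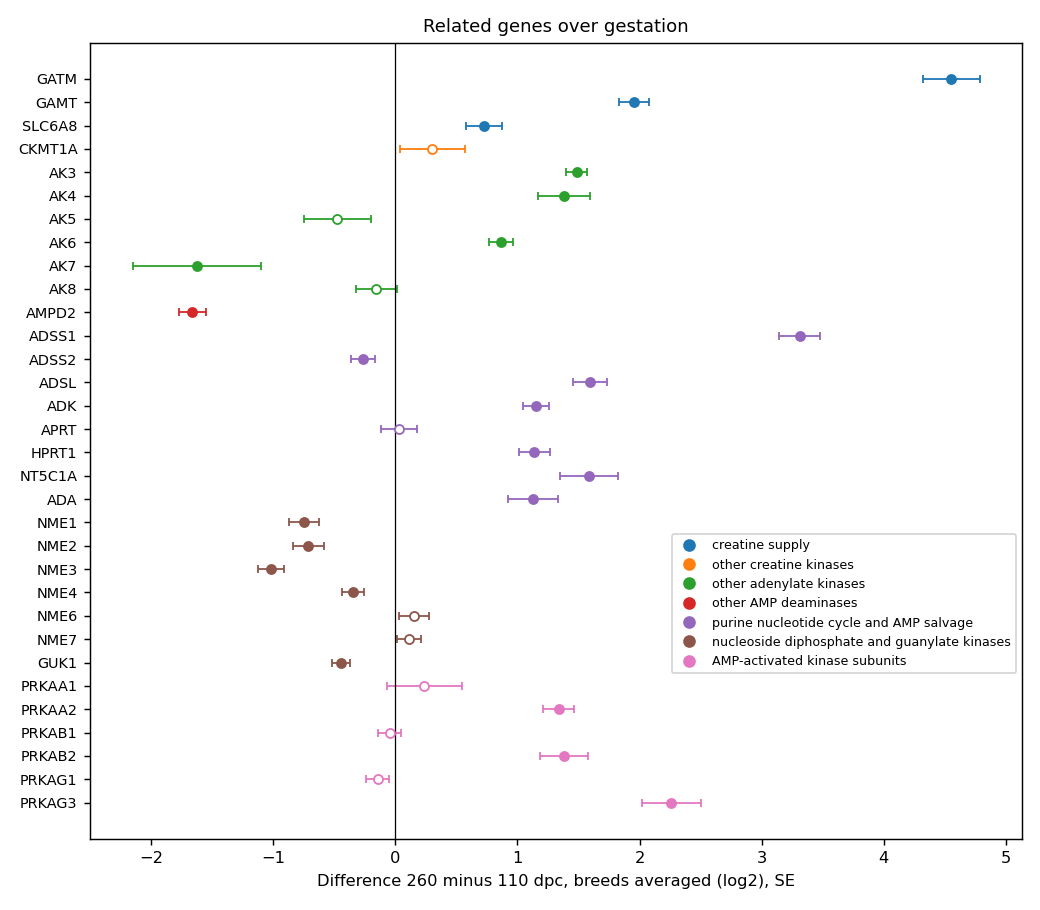
Difference between 260 and 110 dpc with breeds averaged (log2, horizontal axis, bars are SE) for the brightest probe of each of 32 related genes, coloured by list. Filled points passed at an adjusted p under 0.05 and open points did not. *GATM* lies furthest to the right at 4.56 and *AMPD2* furthest to the left at −1.66, and *AK7* was well above background on only 6 of 21 arrays.

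Markers of the cells in the tissue moved over the same interval, where 21.2% of all probes rose and 22.7% fell. In bulk muscle fewer cells of a type and less RNA per cell cannot be told apart. All 6 measured muscle fibre markers rose, from *DES* by 1.03 to *CASQ1* by 3.90, and their summed level went from 10.90 to 11.34 at 110 dpc to between 13.10 and 13.51 at 260 dpc. Of the 3 embryonic and neonatal fibre markers 2 fell. The summed level of the list went from between 11.53 and 11.85 to between 10.54 and 11.14. All 6 muscle fibre markers were well above background on all 21 arrays.

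Nerve and smooth muscle are known for brain-type creatine kinase. Of 6 nerve and Schwann cell markers 3 rose and 1 fell, with a summed level between 4.42 and 4.85 at 110 dpc and between 5.55 and 6.65 at 260 dpc, and *NEFL* and *SOX10* were well above background on 3 and 15 arrays. Of 4 smooth muscle markers 3 rose, and their summed level went from between 7.47 and 8.01 to between 10.27 and 10.59. This sum follows the brightest marker, *ACTG2*, which rose by 3.11. *MYH11* rose by 2.73 and *MYLK* by 0.93, while *CNN1* differed by −0.43 and did not pass. Of 5 fibroblast markers 3 fell, and the summed level of the list went from between 10.30 and 11.16 to between 9.79 and 10.50. Both measured markers of dividing cells, *CCNB1* and *CDK1*, fell, and their sum went from between 2.47 and 2.83 to between −0.79 and 0.32.

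Of the remaining lists, 3 endothelial markers of 5 rose and 1 fell, with a summed level from 5.55 to 5.88 at 110 dpc and 5.63 to 6.04 at 260 dpc. Of 4 leukocyte markers 2 rose and 1 fell, while the summed level of the list went from between 4.38 and 5.59 to between 4.24 and 4.30. Of 3 erythroid markers 2 fell, and the summed level of the list went from between 4.79 and 5.35 to between 2.35 and 4.18. Of 2 measured adipocyte markers 1 rose, and the sum of both went from between −1.78 and 0.62 to between −0.57 and 2.71. No marker of any list passed between the breeds with the stages averaged, where 0.0733% of all probes passed. The part of these cell types in the course of the *CKB* probes and of the other enzymes was not tested.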

How the data were processed

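Cy3-labelled RNA of 21 foetal muscles was hybridized to bovine 4x44K arrays, each foetus to its own array. The authors made the deposited intensity values with Agilent Feature Extraction 10.7, using background and multiplicative detrending without background subtraction. The paper's methods also name a normalization between arrays, but the deposited values still matched the scanner's. Their deposited value table is in log2, and 99.98% of its values lay within 0.01 of the log2 of the scanner intensity. It served as an alternative.

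Control spots and 258 outlier spot values were left out, no probe value was saturated, and spots of a probe were averaged. The log2 intensity was reduced by the array's 75th percentile (525 to 1174 intensity units, median 706) and 2.69 was added. The RefSeq annotation of ARS-UCD2.0 gave a gene name to 26628 of 43653 probes through their accessions. Positions are not given because the array design used a different assembly. The number of arrays limits the precision.

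A mean for each of 8 groups was fitted with limma 3.58.1 in R 4.3.3 to all probes without a filter (files were read with jsonlite 2.0.0 and data.table, version 1.17.8), with 13 residual and 2.12 prior degrees of freedom. The script was tested on simulated data. Named genes were the 5 members with all their probes, each measured by its brightest probe, the related genes that passed between 260 and 110 dpc (up to 4 of each list by size), and the 3 genes most correlated with each member. *CKMT1A*, *ADSS2*, single markers, the *CKB* probe A_73_P372731 and its use as an alternative were chosen after their values were seen. An item of these lists is not reported here. The members and lists were chosen with earlier results of these data known.

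Alternatives were normexp correction (offset 50), scaling by quantile normalization or the median, the authors' table, an expression filter (mean above 0 in 7 of 8 groups), a detection filter, a term for sex, only female foetuses, a block for slide, scan day, sire or replicate number, a trended robust variance, the mean of a gene's probes, and each array left out.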

Additional observations from a re-analysis of the deposited data

How the results depend on the processing

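Of 874 values recomputed under 14 alternatives, 846 were classed as kept, as were 1314 of 1323 with an array left out. A difference was kept if its sign and its side of the threshold held. A ratio change was kept within the SD over the foetuses at 260 dpc, and a count of genes if it stayed near the main count. Kept counts could thus change, and that of members passing from 110 to 180 dpc ran from 3 to 5. Counts between the breeds that stayed at 0 were included. The rises of *CKM*, *CKMT2*, *AK1* and *AMPD1* from 110 to 260 dpc passed in both breeds under every alternative. *CKB* did not keep its direction. With the mean of all its probes, its difference from 110 to 260 dpc was 0.50 in BA, −0.0088 in CH and 0.25 with breeds averaged, that from 110 to 180 dpc was −0.93, and the change of the ratio of *CKM* to *CKB* was 3.11 in place of −0.53. With A_73_P372731 alone, an alternative chosen after seeing the data, the *CKB* differences were −4.82 in BA, −5.70 in CH and −5.26 on average from 110 to 260 dpc, −3.15, −1.17 and −0.94 in the successive steps and 0.13 between the breeds, and the ratio changed by 8.37. The change of the ratio of *CKMT2* to *CKM*, 2.97 with breeds averaged, was 2.33 after normexp correction and 3.40 after quantile normalization, which also moved the ratio of *CKM* to *CKB* (A_73_P470928) to −0.73. Among female foetuses alone 1 of 5 genes passed from 180 to 210 dpc in place of 4, with fewer arrays. With slide as a block 5 of the related genes fell in place of 8. The cause of the other shifts was not tested.

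Replicate numbers did not pair the foetuses, since 66 group-centred pairs of arrays with the same number had a median correlation of −0.01 and 126 other pairs 0.01. With the replicate block, 5 of 5 genes passed from 110 to 180 dpc in place of 4, through *AMPD1* at 0.52, and no other call of the members changed. The steps of *AMPD1* crossed the threshold under several settings, and *AK1* from 210 to 260 dpc was 0.46 and did not pass in the authors' table. All 5 brightest probes, and 16 of 17 probes, passed the expression filter.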
